A study of Rattus norvegicus with 16 samples.

Results

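Interferon response genes are genes that cells switch on when interferon, a signal of infection, binds its receptor. Described here are 9 of them in rat brain: Stat2, Irf1, Irf7, Irf9, Isg15, Ifit2, Ifit3, Mx2 and Bst2. They were chosen by name as genes of the pathway, with earlier results of these data known. The row whose gene symbol equals each name was taken from both count tables. All 9 of 9 were found in each table among 32754 identifiers. The question was whether loss of Pink1 raises them. No member rose past the test in either sex, and Stat2 was the only member to pass it, as a fall of 0.34 on the log2 scale when both sexes were fitted together. In 1 male Pink1-/- library, from animal 25, 6 of the 8 members tested in males were at their highest level.

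The samples were 16 brain libraries from rats 8 months old, 4 from each of male wild type (WT), male Pink1-/-, female WT and female Pink1-/-. Pink1 encodes a kinase that flags damaged mitochondria so that the cell degrades them, and its loss causes an inherited form of Parkinson disease in people. The labelled tissue is brain, and the series is titled for the nucleus ambiguus, a group of medullary motor neurons that serves the larynx and pharynx. The labels name neither strain, Pink1 allele nor any treatment, and each library goes by its animal number. Total counts ran from 10959412 to 13691846 in males and from 13875621 to 26570195 in females. Pink1 itself ran from 64.7 to 78.3 CPM (counts scaled to library size, with TMM factors) in WT males and from 1.51 to 2.32 CPM in Pink1-/- males, and from 115 to 137 CPM in WT females and 4.68 to 11.6 CPM in Pink1-/- females, so each library had the level of its label. Chat, the defining gene of cholinergic motor neurons, ranged from 6.78 to 27.1 CPM in males and from 6.24 to 76.9 CPM in females, so the share of motor neuron RNA differed widely between libraries. In bulk tissue, fewer cells of a type and less RNA per cell cannot be told apart. The sexes were deposited as separate tables with different composition, so sex cannot be told apart from library processing, and every comparison of levels stays within a sex.

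Type I interferons bind a receptor on the cell surface and activate the kinases JAK1 and TYK2, which phosphorylate STAT2. STAT2 acts with IRF9 in the complex ISGF3, which binds the interferon-stimulated response element (ISRE) in the promoters of target genes. Interferon gamma acts mainly through another promoter element, the gamma activated site (GAS). In the brain, microglia, astrocytes and endothelium all respond to interferon, and DNA or RNA that leaks from damaged mitochondria can start the response through the cGAS-STING and MAVS pathways.

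The promoter is where these signals meet the members, so RefSeq promoter windows (rat build GRCr8, 250 bases before to 50 after the start) were searched on both strands for the ISRE core (GAAA, then NN, then GAAA) and the GAS core TTCNNNGAA, where N is any base. A window was present for 6 members. Each is printed on the gene's own strand, 5′ to 3′, upstream of the start, with matched letters in capitals.
Stat2: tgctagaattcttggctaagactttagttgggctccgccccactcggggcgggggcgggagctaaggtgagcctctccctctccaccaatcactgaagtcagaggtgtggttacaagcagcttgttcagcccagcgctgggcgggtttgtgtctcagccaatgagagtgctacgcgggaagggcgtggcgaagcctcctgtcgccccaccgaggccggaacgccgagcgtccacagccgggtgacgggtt
Irf1: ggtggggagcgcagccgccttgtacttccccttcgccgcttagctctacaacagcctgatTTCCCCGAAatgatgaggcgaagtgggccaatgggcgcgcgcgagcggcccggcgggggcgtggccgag
Irf7: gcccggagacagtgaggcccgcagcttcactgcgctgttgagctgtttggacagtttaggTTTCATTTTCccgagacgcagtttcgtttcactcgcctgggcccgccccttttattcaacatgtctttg
Irf9: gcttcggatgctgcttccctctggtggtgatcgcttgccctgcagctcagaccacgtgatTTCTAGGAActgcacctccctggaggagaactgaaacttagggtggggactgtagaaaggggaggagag
Ifit3: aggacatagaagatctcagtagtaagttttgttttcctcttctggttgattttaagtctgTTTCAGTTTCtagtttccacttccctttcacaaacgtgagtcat
Bst2: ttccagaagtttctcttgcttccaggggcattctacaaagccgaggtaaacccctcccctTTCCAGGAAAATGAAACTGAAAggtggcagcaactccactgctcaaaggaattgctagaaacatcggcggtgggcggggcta

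The Stat2 stretch is chr7:1286840-1287089 on the plus strand, and its window held neither motif. The Irf1 stretch is chr10:38417733-38417861 on the plus strand, with GAS letters from -142 to -134 relative to the start. The Irf9 stretch is chr15:33065677-33065805 on the plus strand, with GAS letters from -99 to -91. Those 2 genes for transcription factors thus carried GAS letters and no ISRE letters in the window. The Irf7 stretch is chr1:205800024-205800152 on the minus strand, with ISRE letters, in the reverse orientation, from -69 to -60. The Ifit3 stretch is chr1:241527222-241527325 on the plus strand, with ISRE letters, also reversed, from -44 to -35. The Bst2 stretch is chr16:18255023-18255164 on the minus strand and held 2 ISRE matches, from -131 to -122 and from -125 to -116, which overlap each other. A GAS match from -137 to -129 overlaps the first of these. Across all 33469 windows of that length, 3.92% held the ISRE core and 8.87% the GAS core, and of the 123 windows of other interferon pathway genes 40.7% and 19.5% did. A match describes letters and says nothing of binding in these brains.

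Stat2, the STAT that is specific to ISGF3, was lower in Pink1-/- than in WT libraries of both sexes. In males the WT libraries had 27.2, 24.8, 24.7 and 30.4 CPM and the Pink1-/- libraries 23.6, 21.1, 20.7 and 23.7 CPM (animals 20, 22, 23 and 24, then 17, 18, 19 and 25). In females the WT libraries had 57.4, 47.5, 52.0 and 45.5 CPM and the Pink1-/- libraries 40.6, 38.1, 35.6 and 39.9 CPM (animals 64, 111, 504 and 980, then 548, 602, 736 and 983). Every Pink1-/- library thus lay below every WT library of its sex. Of all genes tested, 8.04% separated in that direction in males, 1.76% in females and 0.221% of the 13585 tested in both sexes did so in both. The log2 fold change was -0.26 in males (SE 0.0951, edgeR adjusted p = 0.123) and -0.39 in females (SE 0.0893, edgeR adjusted p = 0.353), and in neither sex alone did it pass an adjusted p of 0.05. With both sexes in a single fit that has sex as a term, it was -0.34 (SE 0.0640, edgeR adjusted p = 0.0172) and Stat2 was called lower. The joint fit uses the same libraries as the fits by sex and is not independent of them. The joint call was lost when male WT 24 (adjusted p = 0.0604), male Pink1-/- 18 (adjusted p = 0.0571) or male Pink1-/- 19 (adjusted p = 0.0590) was left out of the edgeR fit, and with library totals as the only scaling (log2 fold change -0.30, adjusted p = 0.144). Among the fits that kept it were DESeq2 (adjusted p = 0.000198) and the likelihood ratio test of edgeR (adjusted p = 0.000954). Those called 253 and 236 genes, where the main joint fit called 103. The effect did not differ detectably between the sexes, the male effect minus the female effect being 0.13 (SE 0.127, edgeR adjusted p = 0.675).

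Irf9, the DNA-binding subunit of ISGF3, showed no change that passed the test. Male WT libraries had 5.25, 5.10, 4.90 and 6.08 CPM and male Pink1-/- libraries 4.70, 6.31, 5.58 and 6.85 CPM, and these groups overlapped. Female WT libraries had 8.65, 8.50, 7.29 and 9.04 CPM and female Pink1-/- libraries 11.1, 9.09, 9.08 and 9.61 CPM. The female groups did not overlap, a separation seen in this direction in 1.62% of genes, but the lowest Pink1-/- library and the highest WT library were close. The log2 fold change was 0.22 in females (SE 0.12, edgeR adjusted p = 0.993) and 0.13 in males (SE 0.15, edgeR adjusted p = 0.585).

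Irf1, a transcription factor induced mainly by interferon gamma, had 2.71, 1.88, 2.41 and 2.43 CPM in male WT and 2.72, 2.57, 2.36 and 4.04 CPM in male Pink1-/- libraries. Only Pink1-/- 25 stood above the WT range by more than a small margin. In females it had 4.57, 4.63, 4.89 and 3.04 CPM in WT and 4.98, 4.54, 4.98 and 5.44 CPM in Pink1-/- libraries, where the groups overlapped and WT 980 was lowest. The log2 fold changes were 0.32 in males and 0.23 in females, and neither passed the edgeR test (adjusted p = 0.359 and 0.993).

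Irf7, the factor that amplifies type I interferon production, was scarce. Counts ran from 8 to 26 in males and from 25 to 61 in females. In CPM the male WT libraries had 0.677, 0.825, 1.16 and 0.912 and the male Pink1-/- libraries 0.749, 1.17, 1.04 and 1.88. Again Pink1-/- 25 was the highest male library and the other 7 were mixed. Female WT libraries had 2.01, 1.34, 2.14 and 2.13 CPM and female Pink1-/- libraries 2.64, 3.51, 1.18 and 2.43 CPM, with Pink1-/- 736 the lowest of all 8. The log2 fold changes of 0.43 in males (SE 0.33) and 0.34 in females (SE 0.31) did not pass the edgeR test (adjusted p = 0.409 and 0.993).

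**Figure D1:**
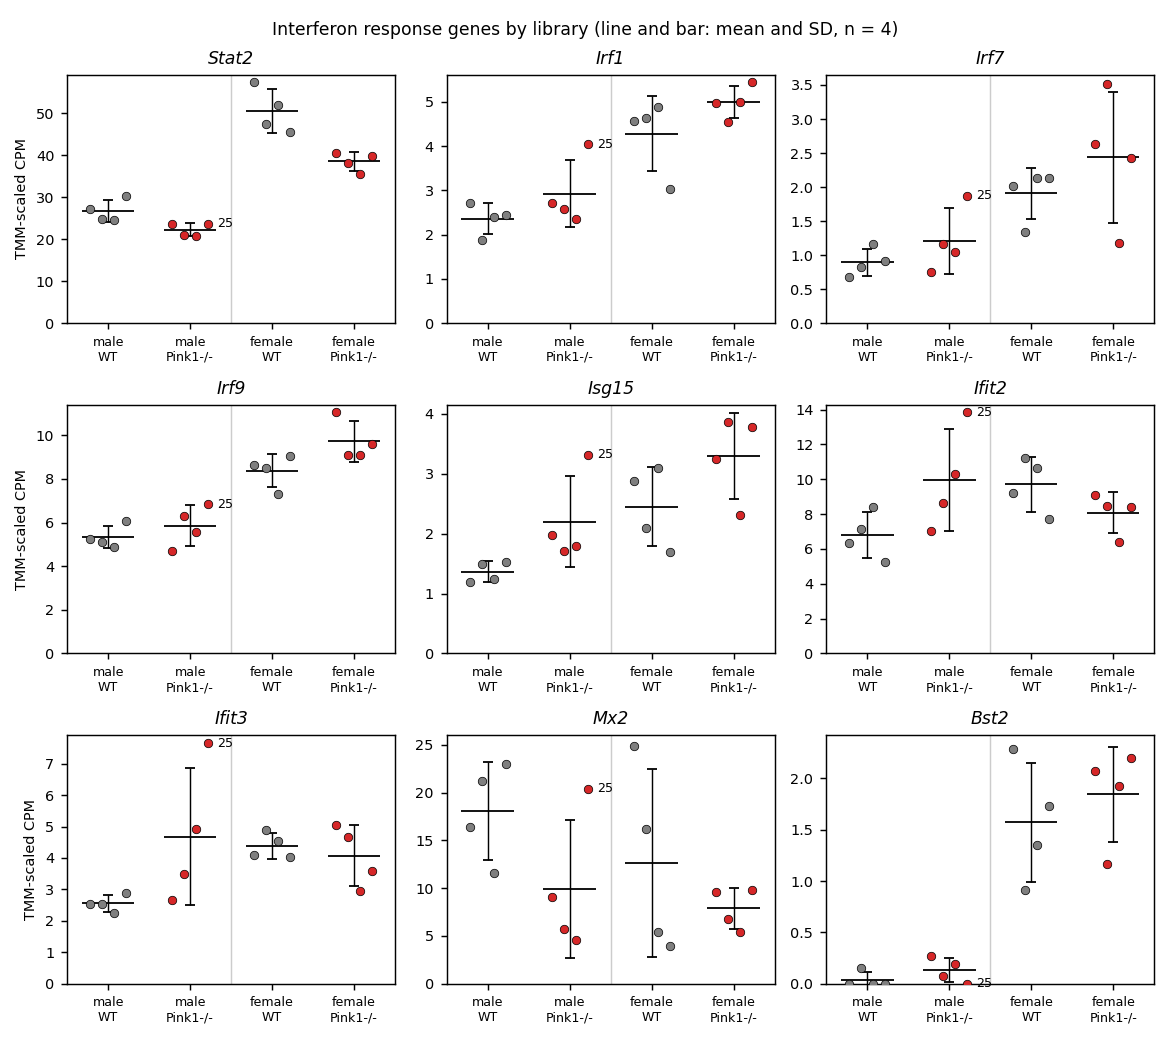
Level of each interferon response gene in every library, as TMM-scaled CPM within a sex, by group. Each point is 1 library, the line is the mean and the bar 1 SD (n = 4). Stat2 is lower in all Pink1-/- libraries of each sex, and male Pink1-/- 25, marked, is the highest male library for Irf1, Irf7, Irf9, Isg15, Ifit2 and Ifit3.

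Isg15 encodes a ubiquitin-like protein that is joined to other proteins during the interferon response. Male WT libraries had 1.18, 1.50, 1.25 and 1.52 CPM and male Pink1-/- libraries 1.97, 1.71, 1.80 and 3.32 CPM, from 14 to 46 counts each. All Pink1-/- males lay above all WT males, and 7.15% of genes tested in males separated in that direction. The log2 fold change was 0.69 (SE 0.27) and did not pass the edgeR test (adjusted p = 0.137). Female WT libraries had 2.88, 2.10, 3.10 and 1.70 CPM and female Pink1-/- libraries 3.25, 3.86, 2.30 and 3.77 CPM. These overlapped, with 3 of the 4 Pink1-/- libraries above all WT libraries and Pink1-/- 736 within the WT range. The female log2 fold change was 0.43 (SE 0.25, edgeR adjusted p = 0.993), and over both sexes it was 0.54 (SE 0.18, edgeR adjusted p = 0.197).

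Ifit2 and Ifit3 encode tetratricopeptide repeat proteins that act against viral RNA and its translation, and they are related in sequence, so that the counting could divide reads between them. In males Ifit2 had 6.35, 7.13, 8.38 and 5.24 CPM in WT and 7.01, 8.65, 10.3 and 13.8 CPM in Pink1-/- libraries. Ifit3 had 2.54, 2.55, 2.24 and 2.89 CPM in male WT and 2.66, 3.50, 4.92 and 7.64 CPM in male Pink1-/- libraries. For both genes 3 of the 4 Pink1-/- males were above all WT males and Pink1-/- 17 was within the WT range. The male log2 fold changes were 0.55 for Ifit2 (SE 0.21, edgeR adjusted p = 0.130) and 0.87 for Ifit3 (SE 0.29, edgeR adjusted p = 0.108), and neither passed.

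In females the same genes did not stand higher. Ifit2 had 9.19, 11.2, 10.7 and 7.74 CPM in WT and 9.09, 8.47, 6.40 and 8.40 CPM in Pink1-/- females. Ifit3 had 4.08, 4.89, 4.54 and 4.03 CPM in WT and 5.06, 4.68, 2.96 and 3.59 CPM in Pink1-/- females. The groups overlapped for both genes, and Pink1-/- 736 was the lowest of the 8. The female log2 fold changes were -0.26 (SE 0.15) and -0.11 (SE 0.19), with an edgeR adjusted p of 0.993 and 0.995. The male effect exceeded the female effect by 0.81 for Ifit2 (SE 0.27, unadjusted p = 0.0087, edgeR adjusted p = 0.231) and by 0.97 for Ifit3 (SE 0.37, unadjusted p = 0.0166, edgeR adjusted p = 0.264). Neither difference between the sexes passed the test after adjustment.

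Mx2 encodes a dynamin-like antiviral GTPase and had the widest spread within groups, relative to the mean, of the members tested in males. Male WT libraries had 16.4, 21.2, 11.6 and 23.0 CPM and male Pink1-/- libraries 9.06, 5.69, 4.54 and 20.4 CPM. Pink1-/- 17, 18 and 19 lay below every WT male, and Pink1-/- 25 lay inside the WT range. The male log2 fold change was -0.85 (SE 0.37, edgeR adjusted p = 0.175). With Pink1-/- 25 left out it was -1.47 (SE 0.27, edgeR adjusted p = 0.0261), which passes the test as a fall, in a fit that called 1.18% of genes. With any other male library left out it did not pass. The edgeR adjusted p then ran from 0.204 (without WT 20) to 0.326 (without Pink1-/- 17). Female WT libraries had 24.9, 16.2, 5.42 and 3.95 CPM and female Pink1-/- libraries 9.61, 6.75, 5.46 and 9.79 CPM. The 2 highest female libraries were WT 64 and WT 111 and the 2 lowest were WT 504 and WT 980, so the WT group spanned the Pink1-/- group (log2 fold change -0.65, SE 0.49, edgeR adjusted p = 0.993). Without female WT 64 the value was -0.09, and without WT 980 it was -0.96. Mx2 shares sequence with Mx1, and the counting could divide reads between them.

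Bst2 encodes tetherin, which holds budding virus particles at the cell surface. In males it had 2 counts in WT 22 and none in the other WT libraries, and 4, 1, 2 and 0 counts in Pink1-/- 17, 18, 19 and 25. It did not pass the filter on low counts there and was not tested. A count of 0 allows up to 0.254 CPM in the male libraries that had none (3 counts, counting error only, the highest value being that of WT 20). In females it had 2.28, 0.914, 1.35 and 1.74 CPM in WT and 2.08, 1.17, 1.93 and 2.20 CPM in Pink1-/- libraries. The female groups overlapped (log2 fold change 0.24, SE 0.31, edgeR adjusted p = 0.993).

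Counted together, 0 of the 8 members tested in males were called at an adjusted p under 0.05 by edgeR's quasi-likelihood test, against 2.3% of all 13770 genes tested. At an unadjusted p under 0.05, 3 members were higher (Isg15, Ifit2 and Ifit3) and 2 lower (Stat2 and Mx2), where 14.1% of all genes were higher and 12.1% lower. The likelihood ratio test of edgeR and DESeq2 also called 0 members in males, but DESeq2 gave no adjusted p for Irf7 and Isg15 there. The members' median log2 fold change in males was 0.38, and that of all genes 0.0057. In females 0 of 9 were called, against 0.059% of 15265 genes, with only Stat2 under an unadjusted p of 0.05, where 4.64% of genes were, and a median of 0.22 beside 0.0011 for all genes. DESeq2 called Stat2 lower in females (adjusted p = 0.0291), in a fit that called 0.38% of genes. Over both sexes 1 of 9 was called, Stat2, against 0.685% of 15042 genes. For the difference between the sexes 0 of 9 were called, against 0.0798% of genes. Bst2 is among the 9 in both of these fits through its female counts, as it did not pass the filter in males. Its male part there rests on 0 to 4 counts per library, and its difference between the sexes was 1.38 (SE 1.15). Ifit2 and Ifit3 were under an unadjusted p of 0.05 with the larger effect in males, where 8.23% of genes were; DESeq2 and the likelihood ratio test called 0 too.

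**Figure D2:**
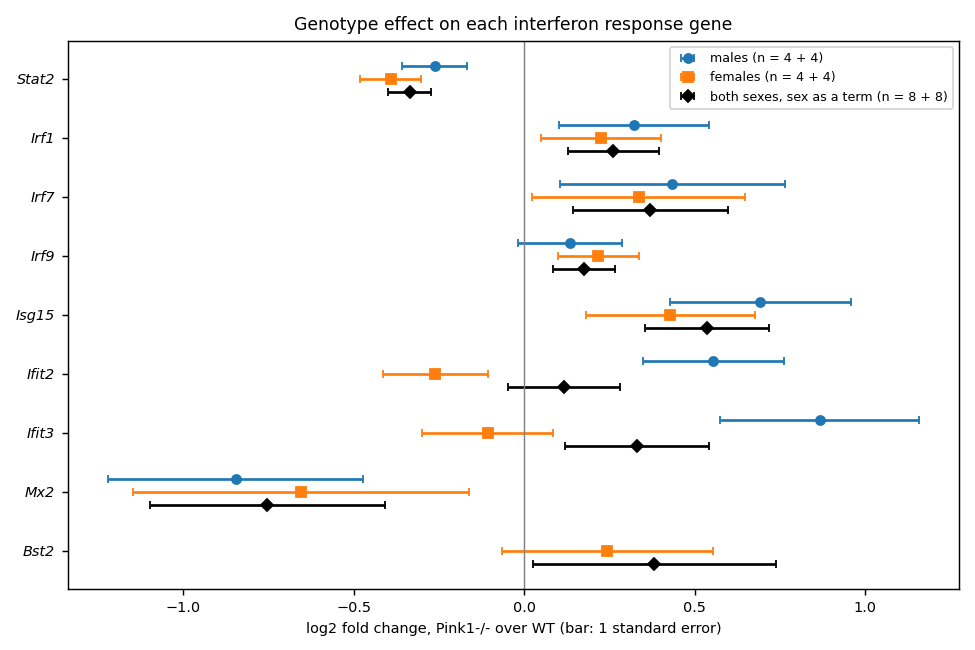
Log2 fold change of Pink1-/- over WT for each interferon response gene, in males, in females and over both sexes with sex as a term. Points are edgeR estimates and bars 1 standard error. Stat2 and Mx2 lie below 0 in all 3 fits, Ifit2 and Ifit3 lie above 0 in males and below 0 in females, and Bst2 was not tested in males.

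The authors' deposited tables gave no member a call either. In the authors' deposited table for males, 8 members were listed with false discovery rates from 0.0510 (Ifit3) to 0.689 (Irf9), all marked as not significant, and Bst2 was not listed; 6.21% of the 13828 genes in that table had a rate under 0.05. In the authors' deposited table for females all 9 were listed, again none as significant, with Stat2 at the lowest rate, 0.168; 0.425% of the 14604 genes there had a rate under 0.05.

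Male Pink1-/- 25 stood apart from the other males in these genes. It was the highest of the 8 male libraries for Irf1, Irf7, Irf9, Isg15, Ifit2 and Ifit3, while it was the highest for 7.1% of all genes tested. The members were chosen with earlier results of these data known, and they correlate with each other. The share of all genes is therefore no unbiased yardstick for them, and no test was made. The mean standardized level of the 8 tested members (log2 of CPM + 1, in SD from each gene's mean over the males) was 1.56 in Pink1-/- 25 and between -0.40 and 0.10 in the other 7 males, WT and Pink1-/- alike. Its levels were above the median of the other 7 males by a median of 0.87 on the log2 scale for the members and 0.0057 for all genes. In females the same measure ran from -0.76 (Pink1-/- 736) to 0.57 (Pink1-/- 548), with WT libraries from -0.63 to 0.46.

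Without Pink1-/- 25 the male effects of the upward members were smaller. The log2 fold change of Isg15 was then 0.42 (edgeR adjusted p = 0.302), that of Ifit2 0.35 (edgeR adjusted p = 0.265) and that of Ifit3 0.51 (edgeR adjusted p = 0.208). Irf1, Irf7 and Irf9 stood at 0.12, 0.13 and 0.05, and Stat2 at -0.29. The members' median was 0.13. The upward direction of Isg15, Ifit2 and Ifit3 thus remained with any 1 male library left out, at sizes that depended on that library.

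**Figure D3:**
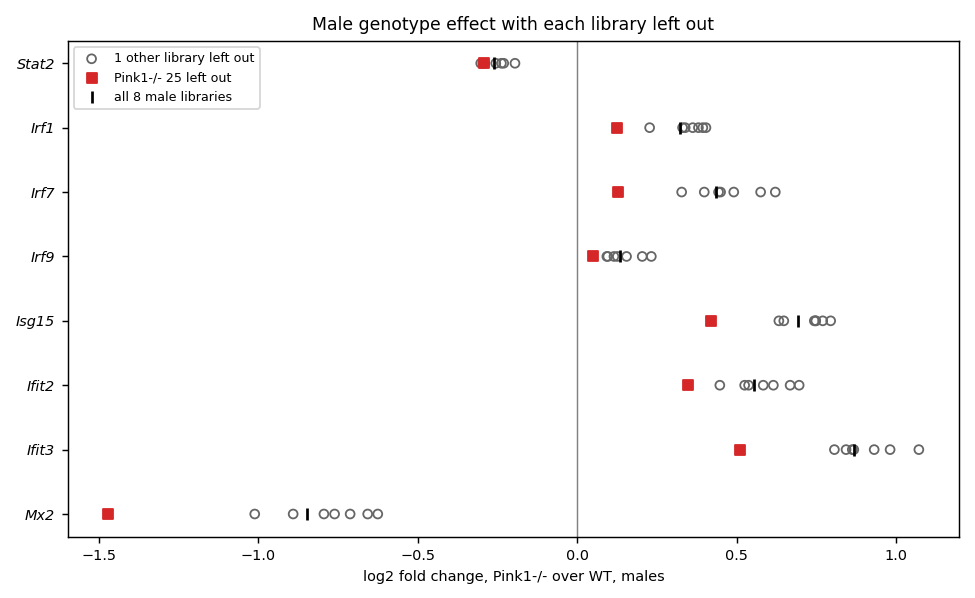
Male log2 fold change of each tested interferon response gene with all 8 libraries (bar), without Pink1-/- 25 (square) and without each other library in turn (circles). Leaving out Pink1-/- 25 gives the lowest value of the set for every upward gene and moves Mx2 from -0.85 to -1.47.

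The rest of the pathway was described with lists that hold 138 identifiers, 98 of them tested in males. Pink1-/- 25 was the highest male library for 32 of those 98 (32.7%). By role, these were 16 of 42 antiviral effectors, 8 of 14 interferon gamma targets and 3 of 15 nucleic acid sensors and adaptors. Further, they were 2 of 5 receptors, 2 of 9 negative regulators and ISG15 enzymes, and 1 of 13 kinases, STATs and other IRFs. The library with the largest share of all genes at their highest level was Pink1-/- 17 (28.7%), which had 17.3% of the pathway genes. The lists differ in size and were chosen with earlier results of these data known, and the difference between their shares was not tested.

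The following genes were named after their values were seen, as those furthest above the other males in Pink1-/- 25. Mx1, the classical interferon-induced GTPase, had 8.00 CPM in Pink1-/- 25 and at most 1.70 CPM in any other male. Rsad2, which encodes the antiviral enzyme viperin, had 8.22 CPM there and a median of 2.13 CPM in the others. Usp18, the protease that removes ISG15 and restrains the receptor, had 3.10 CPM there and a median of 1.01 CPM in the others. Gbp5, which encodes a guanylate-binding protein, and Oasl2 and Oas1f, of the oligoadenylate synthetase family, exceeded the median of the others by 1.35, 1.29 and 1.20 on the log2 scale. These are differences of 1 library, with no test. In females Mx1 had 1.20, 1.13, 0.568 and 0.750 CPM in WT libraries. Female Pink1-/- libraries had 0.866, 2.34, 0.517 and 1.93 CPM of Mx1, and the female groups overlapped.

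**Figure D4:**
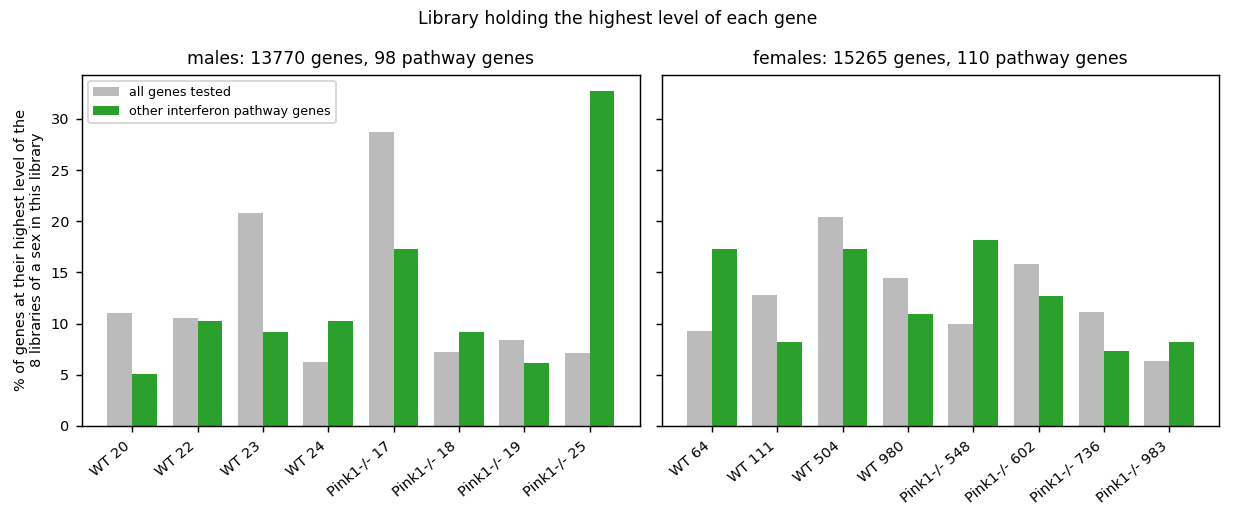
Share of genes (%) that have their highest level among the 8 libraries of a sex in each library, for all genes tested (grey) and for the other interferon pathway genes (green). In males Pink1-/- 25 holds 32.7% of the pathway genes and 7.1% of all genes; no female library holds more than 18.2% of the pathway genes.

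**Figure D5:**
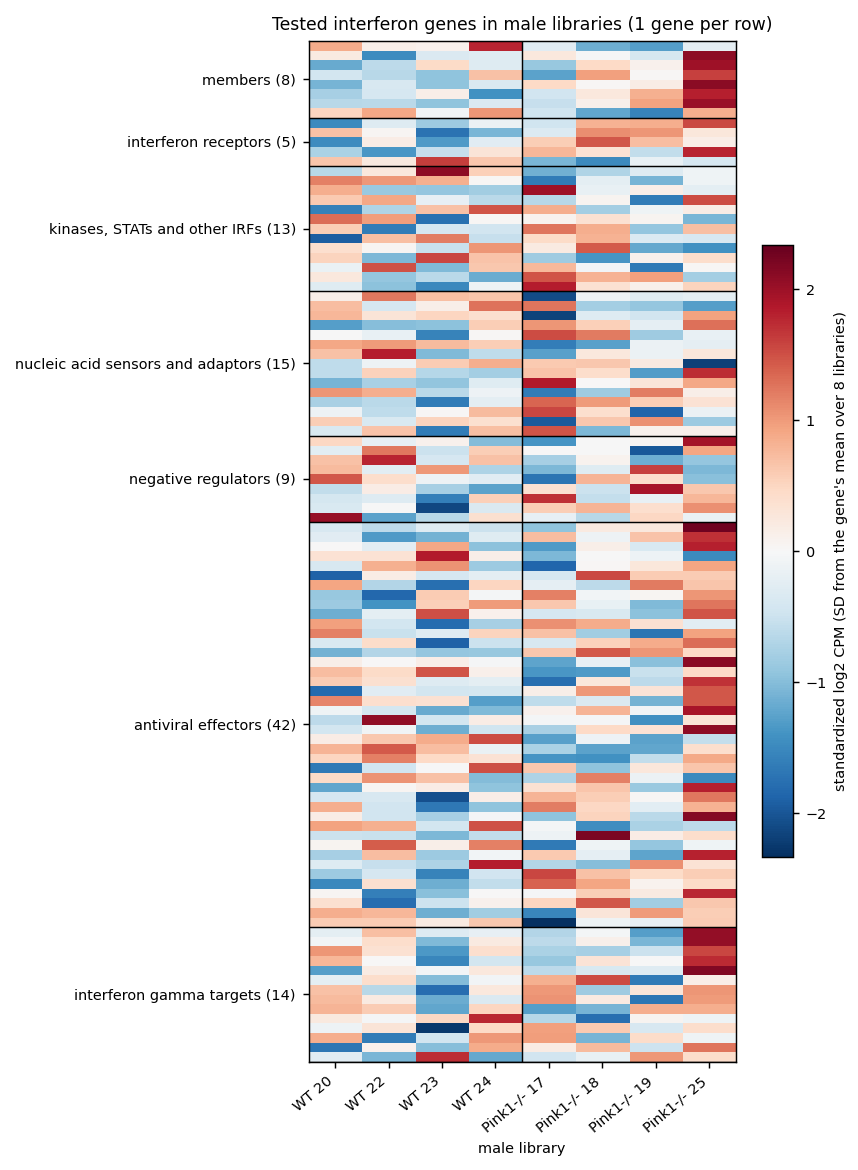
Standardized log2 CPM (SD from each gene's mean over 8 libraries) of the tested members and pathway genes in male libraries, 1 gene per row, grouped by role, with WT left and Pink1-/- right of the vertical line. The column of Pink1-/- 25 is mostly red among members, antiviral effectors and interferon gamma targets, and mixed among kinases, STATs and other IRFs.

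The members moved together within groups to differing extents. After the group mean of each gene was taken out, 26 of 28 pairs of members correlated positively across the 8 male libraries, with a median Pearson r of 0.54 and a range from -0.38 (Stat2 with Ifit2) to 0.93 (Isg15 with Mx2). In females 26 of 36 pairs did, with a median of 0.33 and a range from -0.46 (Ifit3 with Bst2) to 0.80 (Stat2 with Isg15). These values rest on 8 libraries that share a deposited table, in males with Pink1-/- 25 among them. The genes outside the members that followed their mean most closely were Man1a1 (0.963), Cnot11 (0.962), Itpa (0.955), Tnfsf10 (0.944) and Emc6 (0.935) in males. In females they were Cry1 (0.968), Irgm (0.957), Ss18 (0.954), Usp1 (0.951) and Tubgcp4 (0.950). Of these 10, Tnfsf10, the gene of the death ligand TRAIL, and Irgm, an immunity-related GTPase, are known interferon targets. The 10 were picked as the highest values among all genes with a mean of at least 1 CPM, and such a pick favours high values. No test was made, and no share of interferon targets over all genes was computed.

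The interferons themselves were near the detection limit. None of the 10 interferon genes listed passed the filter in either sex, and together they had 5 to 20 counts in a male library and 28 to 49 in a female library. Ifng, the gene of interferon gamma, had 0 counts in all 16 libraries. Of the receptors, 5 were tested in males and 6 in females and none was called. The smallest unadjusted p-values belonged in males to Il10rb (log2 fold change -0.49) and Ifngr1 (0.28), and in females to Ifnlr1 (-0.90) and Ifnar1 (0.26), chains of the interferon lambda, gamma and type I receptors.

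Of 24 nucleic acid sensors and adaptors listed, 21 were matched, and 15 were tested in males and 18 in females. Cgas, Rigi and Ticam1 had no matching row and were not examined. Among those tested was Tlr3, the endosomal receptor for double-stranded RNA. It was the only pathway gene called by edgeR's quasi-likelihood test when each sex was fitted alone. Male WT libraries had 26.0, 27.4, 23.5 and 21.4 CPM and male Pink1-/- libraries 5.79, 7.17, 14.0 and 13.4 CPM. The male groups did not overlap, as for 8.04% of genes in that direction, and the log2 fold change was -1.29 (SE 0.23, edgeR adjusted p = 0.0153). It missed the threshold without WT 22 (adjusted p = 0.0602) or without Pink1-/- 18 (adjusted p = 0.0517). Female WT libraries had 10.4, 6.08, 11.0 and 7.14 CPM and female Pink1-/- libraries 9.26, 3.10, 4.47 and 4.90 CPM. The female groups overlapped through Pink1-/- 548, and the log2 fold change was -0.66 (SE 0.31, edgeR adjusted p = 0.993). Over both sexes it was -0.99 (SE 0.22, edgeR adjusted p = 0.0472), a call that was kept in 3 of 16 fits with a library left out and reached an adjusted p of 0.119 without male WT 22. It was also lost with library totals as the only scaling (adjusted p = 0.0645) and with a filter at a mean of 1 CPM (adjusted p = 0.0532). DESeq2 and the likelihood ratio test of edgeR kept it (adjusted p = 0.0139 and 0.00326). They also kept the male call (adjusted p = 3.10e-06 and 2.61e-05). In each case they called more genes than the main fit.

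In the other pathway lists edgeR's quasi-likelihood test called no gene when each sex was fitted alone. Of the 98 pathway genes tested in males, 0 were called higher and 1, Tlr3, lower, where 2.3% of all genes were called. At an unadjusted p under 0.05, 16 were higher and 8 lower, beside 14.1% and 12.1% of all genes, so both counts lie near the shares of all genes. Other fits called a few male pathway genes higher. The likelihood ratio test of edgeR called 6 of 98 higher, where it called 4.02% of all genes higher: Pml (adjusted p = 0.0221), Trex1, an exonuclease that clears DNA from the cytosol (0.0245), Oas1f (0.0285), Adar, an editor of double-stranded RNA (0.0395), Irf2bp2 (0.0462) and Uba7 (0.0490). DESeq2 called Adar (adjusted p = 0.0221) and Irf2bp2 (0.0463) higher, 2 of the 70 with an adjusted p, where it called 3.91% of all genes higher. The quasi-likelihood test of edgeR, in the fit of all 16 libraries by group, called Oas1f (adjusted p = 0.0363) and Pml (0.0372) higher in males. These were 2 of 110, where it called 2.36% of all genes higher. Trex1 and Adar are named after their values were seen, because these fits called them. The median log2 fold change of the pathway genes in males was 0.10 in the main fit, beside 0.0057 for all genes. Without Pink1-/- 25 it was 0.00015 over 100 tested pathway genes. Of the 110 tested in females, 0 were called, with 3 higher and 1 lower at an unadjusted p under 0.05 and a median of -0.0044. Of all genes in females 0.059% were called and 4.64% had an unadjusted p under 0.05, and DESeq2 and the likelihood ratio test called 0 pathway genes there.

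Among the 42 antiviral effectors tested in males, 26 had positive and 16 negative values, with a median of 0.19. Pml, which builds nuclear bodies, stood at 0.72 (SE 0.19, edgeR adjusted p = 0.0662) and Oas1f, an oligoadenylate synthetase, at 1.01 (SE 0.29, edgeR adjusted p = 0.0787). Among 14 interferon gamma targets 11 were positive and 3 negative, with a median of 0.17, and the smallest unadjusted p-values belonged to Tap2, a peptide transporter of antigen presentation (0.85, SE 0.58), and Psmb8, a subunit of the immunoproteasome (0.66, SE 0.49). Neither list had a gene called by the quasi-likelihood test of the male libraries. Among the kinases, STATs and other IRFs, the median was -0.03 in males, with Irf2bp2, a corepressor that binds IRF2, at 0.55 (edgeR adjusted p = 0.0875) and the receptor kinase Jak2 at -0.24 (edgeR adjusted p = 0.108). The list of negative regulators also holds enzymes that attach ISG15, which are not negative regulators by that role. Of this list, Uba7, the activating enzyme for ISG15, stood at 0.83 (edgeR adjusted p = 0.107). The phosphatase Ptpn11 stood at -0.13 (edgeR adjusted p = 0.241).

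In females the antiviral effectors had a median of 0.05 over 45 tested genes, with XAF1, an interferon-induced factor that promotes cell death, at 0.72 (SE 0.31) and Trim5, a restriction factor that recognizes retroviral capsids, at 0.23 (SE 0.11). The interferon gamma targets had a median of -0.05 over 18 genes, with Igtp, an immunity-related GTPase, at 0.22 and Psmb10, of the immunoproteasome, at 0.16. Tmem173, the symbol in the tables for the gene of the adaptor STING, stood at -0.52 (SE 0.24), Irf4 at 0.65 and Jak1 at -0.18, and the phosphatases Ptpn6 and Ptpn11 at -0.20 and 0.07. Each of these had an edgeR adjusted p of 0.993.

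Cells that could carry the members' RNA were followed by summed marker levels. For microglia, 9 markers summed to 108 to 153 CPM in male WT and 125 to 148 CPM in male Pink1-/- libraries, and to 122 to 178 and 126 to 159 CPM in the female groups, so the groups overlapped in each sex. Of the 8 tested in males 1 was called, P2ry12, a purine receptor of microglia, which was higher in Pink1-/- males, where 2.3% of all genes were called (6.89 to 10.1 CPM in WT, 11.7 to 14.8 CPM in Pink1-/-, edgeR adjusted p = 0.0465). Pink1-/- 25 had 148 CPM of microglial markers, close to the 147 CPM of Pink1-/- 17, whose mean standardized level of the members was -0.40.

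For border macrophages, 5 markers summed to 15.5 to 17.7 CPM in male WT and 10.5 to 12.9 CPM in male Pink1-/- libraries, with no overlap, and Pink1-/- 25 was the lowest. Mrc1, the mannose receptor of these cells, was the 1 marker called of 4 tested, where 2.3% of all genes were called. It was lower in Pink1-/- males (7.53 to 9.46 CPM in WT, 4.97 to 6.31 CPM in Pink1-/-, edgeR adjusted p = 0.0407). In females the sums overlapped (10.9 to 23.9 CPM in WT and 15.5 to 19.7 CPM in Pink1-/-). For endothelium, 5 markers summed to 215 to 229 CPM in male WT and 201 to 213 CPM in male Pink1-/- libraries, also without overlap. Of the 5, 0 were called, and Pink1-/- 25 had 208 CPM. Of single genes tested in males, 8.04% had all Pink1-/- libraries below all WT libraries, and no such share was computed for sums of markers. In females the endothelial sums overlapped (253 to 287 CPM in WT and 267 to 289 CPM in Pink1-/-). For astrocytes, 5 markers summed to 1697 to 1887 CPM in male WT and 1659 to 1899 CPM in male Pink1-/- libraries, and Pink1-/- 25 had 1716 CPM. For cholinergic motor neurons, 7 markers summed to 93.6 to 377 CPM in male WT libraries. In male Pink1-/- libraries they summed to 81.4 to 246 CPM, with Pink1-/- 25 the highest of its group. The female groups overlapped for both lists. The part of these marker differences in the male values of the members and Tlr3 was not tested. The 7 lymphocyte markers summed to at most 0.482 CPM in any library, and Cd3g, Cd79a and Ms4a1 had 0 counts in all males.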

How the data were processed

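RNA was measured in 16 rat brain libraries in 4 groups of 4. The deposited estimated counts, 1 table per sex, are whole numbers per gene; per the submitters' processing notes, the tools were RSEM and edgeR 3.9. The authors' comparison tables give, per the file headers, the log2 fold change, mean log2 CPM, a likelihood ratio score, and p-values with false discovery rates. Not given in the sources used here were the aligner, genome build, annotation and strand setting. Columns were matched by the animal numbers in the titles (0 unused); p-values measure the spread between these libraries, which differ by animal number. RSEM divides reads between near-identical copies. No RefSeq gene overlaps a member on GRCr8 (0 of 9).

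Counts were tested as deposited with edgeR 4.0.16 (quasi-likelihood, R 4.3.3) after filterByExpr (minimum count 10, minimum total 15) and TMM scaling, with Benjamini-Hochberg adjustment over all genes and calls at an adjusted p under 0.05. Standard errors were obtained by dividing the size of the log2 fold change by the square root of F. Levels are TMM-scaled CPM; log2 CPM for correlations has a prior count of 2. Each sex was fitted alone, then both with sex as a term, then with an interaction. Total counts (10959412 to 26570195 per library) limit the precision of genes with few counts. Alternatives were other scalings and filters, DESeq2 1.42.0, the likelihood ratio test, a fit of all 16 libraries by group, and fits that leave out each library in turn.

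The members and the pathway and marker lists were chosen with earlier results of these data known. Of 147 pathway genes 139 were matched (2 by synonym; 138 identifiers), and of 64 markers 59. Named genes are Pink1, all members, every called pathway gene, in each list and sex without a call the 2 genes with the smallest unadjusted p, and the 5 genes per sex that follow the members most closely among those with a mean of at least 1 CPM; genes named after their values were seen are marked so.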

Additional observations from a re-analysis of the deposited data

Results flagged for a closer look

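Single libraries that lay far from the other 3 of their group were looked for in 36 sets of 4 values (9 genes in 4 groups), as a gap to the nearest library that takes up most of the whole range (Dixon's test for an outlying value). Chance gives such a gap in about 1 of 20 sets, and 3 were found. Isg15 in male Pink1-/- 25 was at 3.32 CPM, and the other male Pink1-/- libraries ran from 1.71 to 1.97 CPM. Irf7 in female WT 111 was at 1.34 CPM, from 25 counts, and the other female WT libraries ran from 2.01 to 2.14 CPM. Bst2 in male WT 22 was at 0.150 CPM, which is 2 counts, and the other male WT libraries had 0. With 3 libraries at 0 any count gives such a gap, so Bst2 carries no information here.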

How the results depend on the processing

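The number of genes called in males was 317, and it was 168 with library totals as the only scaling, 523 with no filter, 853 with DESeq2, 957 with the likelihood ratio test, 609 with all 16 libraries in 1 fit, and 98 to 217 with a library left out. In females it was 9, and 58, 49, 17 and 7 to 16 with DESeq2, the likelihood ratio test, 1 fit and a library left out. Over both sexes it was 103, and 253, 236 and 56 to 282 with DESeq2, the likelihood ratio test and a library left out. For the difference between the sexes it was 12, and 3, 19, 21, 122, 95 and 3 to 13 with library totals, no filter, a mean of at least 1 CPM, DESeq2, the likelihood ratio test and a library left out. The causes were not tested.

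Members called numbered 0 in males (0 to 1 with a library left out, the 1 being Mx2 without Pink1-/- 25), 0 in females (1 with DESeq2, Stat2) and 1 over both sexes (0 with library totals, 0 to 1 with a library left out). The Stat2 value over both sexes stayed between -0.36 and -0.30 in all of these fits. The members' median ran from 0.13 to 0.49 in males, 0.06 to 0.23 in females, 0.15 to 0.30 over both sexes and -0.0062 to 0.31 for the difference between the sexes with a library left out. The medians over both sexes and for the difference between the sexes include Bst2, which was not tested in males. Signs turned, with a library left out, for Ifit3 in females (-0.23 to 0.019) and, in the difference between the sexes, for Irf1 (-0.10 to 0.23), Irf7 (-0.20 to 0.31), Irf9 (-0.17 to 0.017), Isg15 (-0.0062 to 0.41) and Mx2 (-0.82 to 0.10). No paired analysis was possible because the animal numbers differ between all groups.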
